A study of Mus musculus with 6 samples.

Results

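The clustered protocadherin genes were taken as the protein-coding genes on mouse chromosome 18 whose symbols start with Pcdha, Pcdhb or Pcdhg. They number 57 of 21900 protein-coding genes, 14 Pcdha, 22 Pcdhb and 21 Pcdhg genes. They lie in this order between 36930285 and 37841873 (mm10), a span of 912 kb that covers 19 of the 47717 bins of 50 kb labelled in all 6 libraries. Hi-C, which sequences pairs of DNA fragments cut and rejoined inside fixed nuclei, measured chromosome contacts in wild type E14 mouse embryonic stem cells, a male line grown in serum with LIF and used between passages 18 and 26. All cells were transfected with esiRNA, a pool of short interfering RNAs, and collected 48 h later. In the control the esiRNA was directed at EGFP, which these cells lack. In Brg1KD it was directed at Smarca4, whose product Brg1 drives the remodelling complex esBAF with ATP. In Ino80KD its target was Ino80, which encodes the motor subunit of another remodeller, INO80. Each group has 2 libraries, replicate 1 from batch 1 and replicate 2 from batch 2. The knockdowns are transient, and Hi-C gives no transcript level, so neither their strength nor the expression of the protocadherins was measured. The labels do not say whether replicates are separate cultures, so their spread may be technical.

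Clustered protocadherins are cell adhesion proteins of neurons. Each neuron switches on a few of the variable promoters by random choice, which gives its surface an identity used in self-avoidance of its branches. In Pcdha and Pcdhg a variable first exon is spliced to constant exons shared by the whole family, whereas each Pcdhb gene is a single exon of its own. Choice of a promoter depends on the binding of CTCF, on cohesin and on contact with distant enhancers, known between the Pcdha and Pcdhb genes and downstream of the Pcdhg genes. In embryonic stem cells the neuronal programme of the cluster is not yet in use. The gene table reflects the shared exons, since all 14 Pcdha genes end within 2 kb of each other and so do all 21 Pcdhg genes, while their starts differ. Starts, the lower coordinate of each gene, were therefore used to place members.

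The cluster ran from weak A and weak B chromatin at its Pcdha end to the most active class at its Pcdhg end. Each library divides the genome into 8 subcompartments, ranked from 1 (B.2.2, the most inactive) to 8 (A.1.1, the most active), with A from rank 5 (A.2.2) upwards and B up to rank 4 (B.1.1). A step of 1 rank is called a class. In both control libraries Pcdha1 to Pcdha9 (starts 36930285 to 36997880) lay in A.2.2. Pcdha10 to Pcdha12, both C-type genes Pcdhac1 and Pcdhac2, and Pcdhb1 and Pcdhb2 lay in B.1.1. The other 20 Pcdhb genes, Pcdhb3 to Pcdhb22 (37300799 to 37521419), lay in A.1.2 in control replicate 1 and in A.2.1 in replicate 2. All 21 Pcdhg genes, from Pcdhga1 (start 37661775) to Pcdhgc5 (start 37819546), lay in A.1.1. C-type genes, which unlike most members are not chosen at random, were thus split, with Pcdhac1 and Pcdhac2 in B.1.1 and Pcdhgc3, Pcdhgc4 and Pcdhgc5 in A.1.1.

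**Figure D1:**
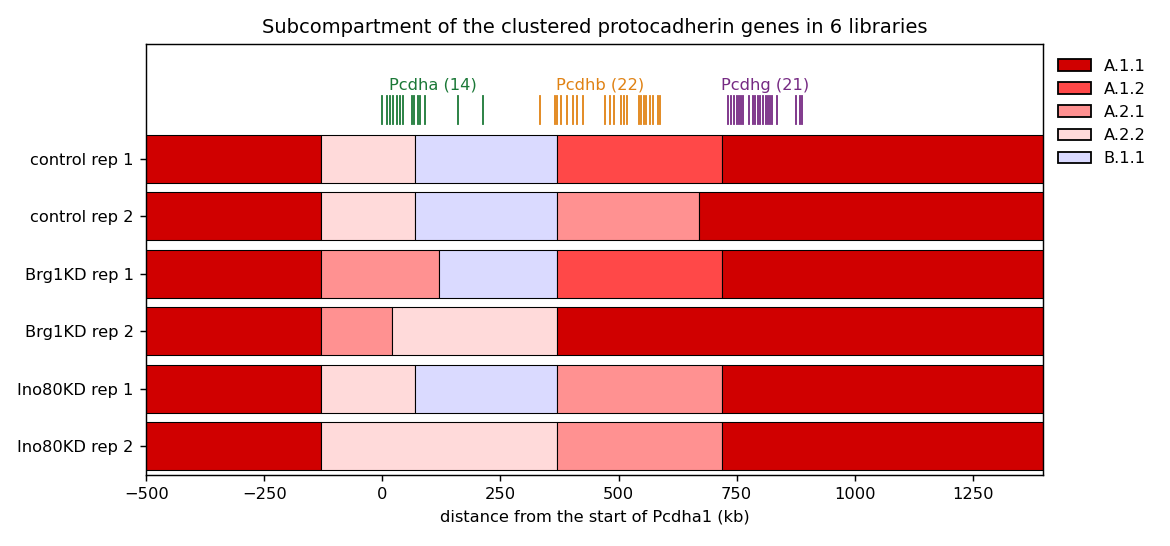
Subcompartment segments of each library (rows, coloured by label from A.1.1 in dark red to B.1.1 in light blue) against distance from the start of Pcdha1 in kb, with the starts of the 57 member genes as ticks above. The borders at -130.284 and 370 kb from the start of Pcdha1 are in all 6 libraries, and the light blue B.1.1 stretch is missing from Brg1KD replicate 2 and Ino80KD replicate 2.

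The less active part of the cluster was an island inside A.1.1. All 18 protein-coding genes within 500 kb before it, from Pfdn1 to Zmat2, and all 10 within 500 kb after it, from Diaph1 to Gnpda1, lay in A.1.1 in all 6 libraries. The island began at 36800001 in every library, just past the end of Zmat2 (36799660) at -130.284 kb from the start of Pcdha1. A further border was found in all 6 libraries at 37300001, between Pcdhb2 (37294840 to 37297614) and Pcdhb3 (start 37300799). Borders between these and after them differed. The step from A to B was at 37000001 in both controls and Ino80KD replicate 1 and at 37050001 in Brg1KD replicate 1, and there was none in Brg1KD replicate 2 and Ino80KD replicate 2. The step up to A.1.1 was at 37650001 in 4 libraries, at 37600001 in control replicate 2 and already at 37300001 in Brg1KD replicate 2. Because all Pcdha genes share their end, 9 of the 14 (Pcdha1 to Pcdha9) ran from A at their start into B at their end in each control. In Brg1KD replicate 1 this held for 12 and in Ino80KD replicate 1 for 9, against 0 in the other libraries.

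By stretch, the mean rank in the controls was 4.33 and 4.33 over the 6 bins of the Pcdha genes, 6.50 and 5.67 over the 6 bins of the Pcdhb genes and 8 and 8 over the 4 bins of the Pcdhg genes. The Pcdha and Pcdhb stretches kept this order in all 6 libraries, and the Pcdhg stretch lay above both in each. The mean over all 47717 bins was 3.99 and 3.98 in the controls. The B.1.1 bins of the cluster, with rank 4, thus lay near the mean of the genome, and the Pcdhb and Pcdhg stretches well above it.

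**Figure D2:**
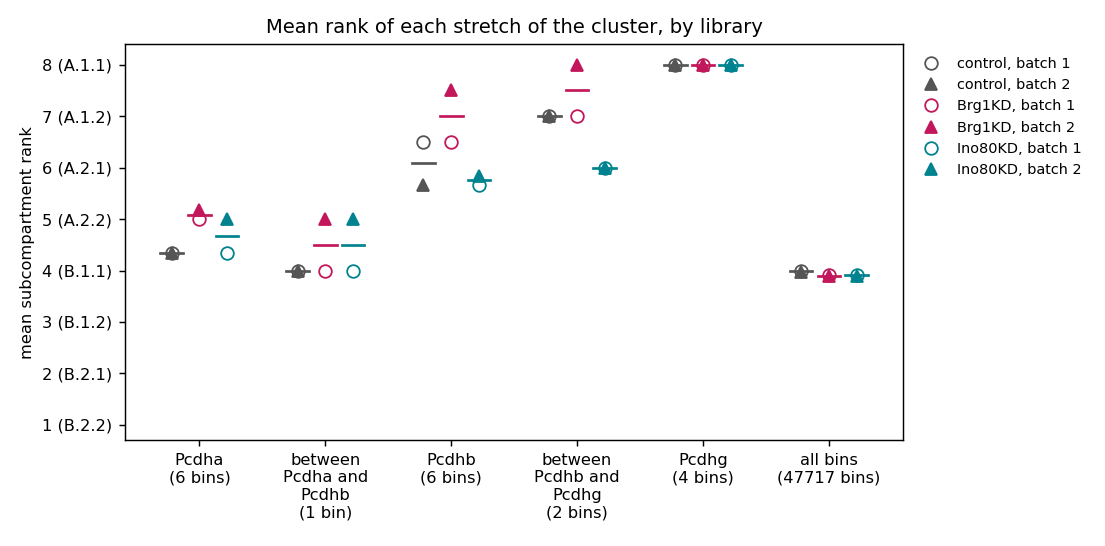
Mean subcompartment rank (vertical axis, 1 to 8, with labels) of each stretch of the cluster and of all bins, per library. Open circles are batch 1, filled triangles batch 2 and bars the group means of 2 libraries. All libraries are at 8 over the Pcdhg genes, while over the Pcdhb genes they range from 5.67 to 7.50.

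The spread between libraries lay mostly over the Pcdhb genes and the bins after them. In 8 of the 19 bins (42.1%) the 6 libraries spanned 2 classes or more, against 13.6% of all bins. These 8 were 1 of the 6 Pcdha bins (16.7%), 5 of the 6 Pcdhb bins (83.3%) and both bins between Pcdhb and Pcdhg. Labels of both Brg1KD libraries were identical in 5 of the 19 bins (26.3%), against 68.3% of all bins, those of control in 12 (63.2% against 68.9%) and those of Ino80KD in 13 (68.4% against 69.5%). Adjacent bins of a segment share a label, so these bins are not independent observations. The label was the same in all 6 libraries in 4 bins (21.1%), those of the Pcdhg genes, against 33.8% of all bins.

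Brg1 knockdown was compared with control to ask whether the cluster's subcompartments differ when Brg1 is depleted. Pcdha1 to Pcdha3 and Pcdha10 to Pcdha12 lay in a more active class in both Brg1KD libraries than in either control, the Pcdhg genes stayed in A.1.1, and the members between them differed between the Brg1KD replicates. For Pcdha1 to Pcdha3 both Brg1KD libraries were in A.2.1 and both controls in A.2.2, so the groups did not overlap. Pcdha4 to Pcdha9 were in A.2.1 in Brg1KD replicate 1 but in A.2.2 in replicate 2, as in the controls. Pcdha10, Pcdha11 and Pcdha12 were in A.2.1 and A.2.2 in Brg1KD against B.1.1 in both controls, a difference of 1.5 classes across the border of A and B, again without overlap. Pcdhac1, Pcdhac2, Pcdhb1 and Pcdhb2 were in A.2.2 in Brg1KD replicate 2 and in B.1.1 in replicate 1, as in the controls. Pcdhb3 to Pcdhb22 were in A.1.2 and A.1.1 in Brg1KD against A.1.2 and A.2.1 in control, and here the groups overlapped. The Pcdhg genes had the same label in all of these libraries, the top class, so a move towards A could not show there.

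In 14 of the 19 bins the Brg1KD mean was above the control mean, in 5 it was the same and in 0 below. Within batch 1 only the bins of Pcdha1 to Pcdha12 were above control, so the others of the 14 rested on batch 2 alone. By 1 class or more 8 bins were above and 0 below, against 4.91% and 10.03% of all bins. The share of all bins above control by any amount was not counted. Bins of a segment share a label and are not independent. The median difference was 0.5 classes in the cluster and 0 over all bins. Over the whole cluster the libraries of batches 1 and 2 had a mean rank of 6.05 and 5.79 in control, 6.26 and 6.79 in Brg1KD and 5.68 and 6 in Ino80KD. Both Brg1KD libraries were thus above all others. The share of the 19 bins in A was 68.4% in each control, 73.7% and 100% in Brg1KD and 68.4% and 100% in Ino80KD. The mean rank of the cluster was 5.92 ± 0.186 in control (SD, n = 2) and 6.53 ± 0.372 in Brg1KD, a difference of 0.605 classes. The mean over all bins differed by -0.0847. Over the 1741 bins of chromosome 18 it differed by 0.0615, the direction of the cluster (0.105 and 0.0184 within batches 1 and 2). The difference of the cluster was 0.211 within batch 1 and 1 within batch 2, and 0.342 without Brg1KD replicate 2. Over the Pcdha bins the difference was 0.750 (0.667 and 0.833 within the batches). Over the Pcdhb bins it was 0.917, all of it from batch 2 (0 and 1.83 within the batches), and it was 0.417 without Brg1KD replicate 2, 0.5 without control replicate 2 and 1.42 without Brg1KD replicate 1. The smallest p that an exact permutation of 2 against 2 libraries allows is 0.333, so that test could not pass a threshold of 0.05 for any mean over libraries, and none is given.

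Counted bin by bin, both Brg1KD libraries lay above both controls in 2 of 19 bins, where 3.13% of all bins did so, and below both in 0, where 7.19% of all bins did so (10.3% either way). The 2 are the bins of Pcdha1 to Pcdha3 and of Pcdha10 to Pcdha12. Without control replicate 1 the count was 8 (19.8% of all bins, either way), without Brg1KD replicate 1 it was 13 (21.5%) and without Brg1KD replicate 2 it was 3 (21%), all towards A in the cluster. In 0 bins were the groups 2 classes or more apart (0.61% of all bins). The bin of Pcdha10 to Pcdha12 was also the 1 bin where every control library was in B and every Brg1KD library in A, as in 0.451% of all bins, and 0 went from A to B, as 1% of all bins did. By limma, fitted over all bins with Benjamini-Hochberg adjustment, 1 of 19 bins was called (1.53% of all bins were called towards A, 3.3% towards B and 4.83% either way). It was the bin of Pcdha1 to Pcdha3, with a difference of 1 class and an adjusted p of 8.00e-08 by limma. This p rests on the absence of any spread within the groups in that bin, as in 18941 bins of the genome, and is not calibrated. With a common variance for all bins the adjusted p by limma was 0.236 there and 0.0466 in the bin of Pcdha10 to Pcdha12, its 1 call in the cluster (3.4% of all bins). The moderated fit gave an adjusted p of 0.733 by limma in the latter bin. The common variance averages in the bins without spread, so its p is not calibrated either. Without Brg1KD replicate 2, when the spread comes from the other groups, limma called 2 of 19 bins and 11.2% of all bins. In bins of 100 kb it called 0 (4.41% of all bins, lowest adjusted p 0.367 by limma). At an unadjusted p under 0.05 by limma was 1 such bin of the cluster, and 1655 of all 23920.

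**Figure D3:**
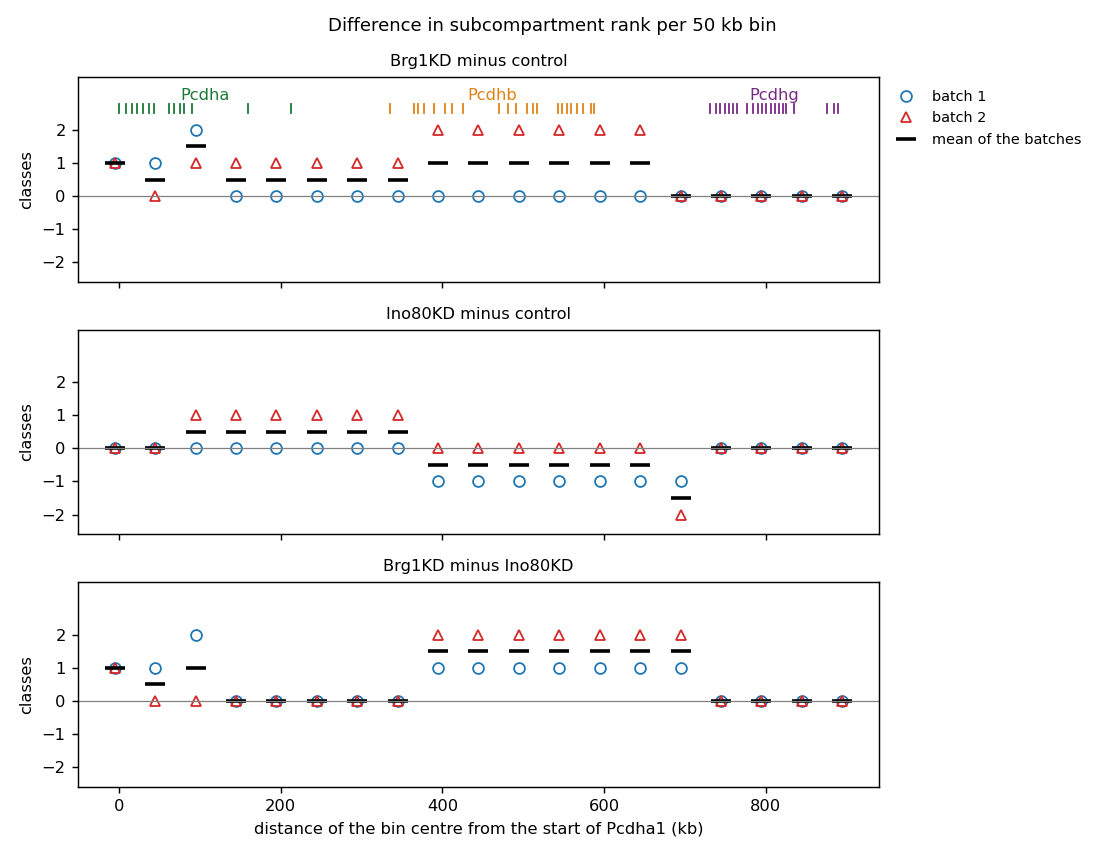
Difference in subcompartment rank (classes, positive towards A) for each 50 kb bin of the cluster against the distance of its centre from the start of Pcdha1 in kb, for the 3 comparisons. Circles are batch 1, triangles batch 2 and bars their mean. Brg1KD was at or above control in every bin, and no library differed from another at the last 4 bins.

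Ino80 knockdown was compared with the same controls, so the 2 comparisons are not independent. The direction differed along the cluster. Pcdha1 to Pcdha9 lay in A.2.2 in both Ino80KD libraries, as in control. Pcdha10 to Pcdhac2, with Pcdhb1 and Pcdhb2, were in B.1.1 in Ino80KD replicate 1, as in control, and in A.2.2 in replicate 2. Pcdhb3 to Pcdhb22 were in A.2.1 in both Ino80KD libraries, the label of control replicate 2 and 1 class below that of control replicate 1. The bin from 37600001 to 37650000, which holds no protocadherin start but Slc25a2, the gene of a mitochondrial ornithine carrier, and Taf7, the gene of a subunit of the general transcription factor TFIID, was in A.2.1 in both Ino80KD libraries. It was in A.1.2 and A.1.1 in control, 1.5 classes above.

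The mean rank of the cluster was 5.84 ± 0.223 in Ino80KD (SD, n = 2), -0.0789 classes from control, with -0.368 within batch 1 and 0.211 within batch 2. Without control replicate 1 the difference was 0.0526 and without Ino80KD replicate 1 it was 0.0789, so its direction depended on single libraries, and it was -0.211 without control replicate 2 and -0.237 without Ino80KD replicate 2. Counted as the share of bins in A, Ino80KD was above control by 15.8 percentage points, the opposite direction. The stretches differed too, with 0.333 classes over the Pcdha bins (0 and 0.667 within the batches) and -0.333 over the Pcdhb bins (-0.833 and 0.167). Leaving out Ino80KD replicate 2 gave 0 over the Pcdha bins, and leaving out replicate 1 gave 0.667. Over the Pcdhb bins it was 0.0833 without control replicate 1 and -0.75 without control replicate 2. The Ino80KD mean was above control in 6 bins, below it in 7 and the same in 6. The groups did not overlap in 1 of 19 bins, that of Slc25a2 and Taf7, towards B (4.5% of all bins towards B, 1.76% towards A and 6.25% either way). They were 2 classes or more apart in 0 (0.266%), and in 0 were they split across the border of A and B (0.161% from B to A, 0.616% from A to B). Without control replicate 2 the groups did not overlap in 7 bins, all towards B (18.2% of all bins, either way). Without Ino80KD replicate 1 they did not overlap in 7 either, 6 of them towards A (16.3%). Limma called 0 of 19 bins (0.855% of all bins towards A, 2.37% towards B, 3.22% either way). At an unadjusted p under 0.05 by limma were also 0 of the 19, and 1797 of all 47717 bins. With a common variance limma called 0 as well (0.683% of all bins, lowest adjusted p 0.0812). Unadjusted, 1 of the 19 was then under 0.05 by limma, and 4639 of all bins. With a common variance and the batch as a block it called 1, the bin of Slc25a2 and Taf7, with an adjusted p of 0.0454 by limma, and 1.95% of all bins. That p is not calibrated, since the common variance averages in bins without spread.

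The knockdowns differed from each other mainly over the Pcdhb genes. Pcdhb3 to Pcdhb22 were in A.1.2 and A.1.1 in Brg1KD and in A.2.1 in both Ino80KD libraries, so these 20 genes were in a more active class in each Brg1KD library than in either Ino80KD library. The same held for Slc25a2 and Taf7 and for Pcdha1 to Pcdha3. For Pcdhb3 to Pcdhb22 only Brg1KD replicate 2 lay outside the labels of the controls, A.1.2 and A.2.1. In all, Brg1KD lay above Ino80KD without overlap in 8 of 19 bins and below it in 0, where 4.24% of all bins lay above and 4.63% below (8.86% either way). They were 2 classes or more apart in 0 (0.52%), and split across the border of A and B in 0 (0.706% with Brg1KD in A, 0.608% with Ino80KD in A). Of the 8 bins 7 adjoin each other and lie in 1 segment in each library of the knockdowns, so they are not independent observations. Over the Pcdhb bins the difference was 1.25 classes (0.833 and 1.67 within the batches), and it was 0.750 without Brg1KD replicate 2. Over the whole cluster it was 0.684 (0.579 and 0.789), and it was 0.421 without Brg1KD replicate 2.

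By limma 1 of the 19 bins was called between the knockdowns, that of Pcdha1 to Pcdha3 (adjusted p = 9.78e-08 by limma, again from a bin without spread), where 1.82% of all bins were called with Brg1KD higher, 2.14% with Ino80KD higher and 3.96% either way. Without Brg1KD replicate 2 it called 2, and 10.4% of all bins. The 7 adjoining bins of Pcdhb3 to Taf7 had a difference of 1.5 classes each and an adjusted p of 0.866 by limma. With a common variance their adjusted p by limma was 0.0513 and limma called 0 of 19 bins (1.08% of all bins). At an unadjusted p under 0.05 by limma were 9 of the 19, these 7 among them, and 6259 of all 47717 bins. With the batch as a block as well, limma called these 7 (adjusted p = 0.0287 by limma), and 3.09% of all bins. Whether the 7 count as shifted therefore depends on how the spread is modelled. The p from a common variance, which averages in bins without spread, is not calibrated.

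Loops are pairs of points that touch more often than their surroundings. They were given as 1 list per group, taken as pooled from both libraries, with the positions of 2 anchors of 10 kb and no score or count. There is no replicate of a list, and a loop absent from a list may be weaker or merely below the threshold of the caller. The cluster held anchors of 7 loops in each list, of 5903 in control, 6013 in Brg1KD and 5475 in Ino80KD. Counted once for each loop they serve, anchors numbered 11, 13.2 and 11 per Mb in it, against 4.83, 4.90 and 4.47 over the autosomes. In control replicate 1, 68.4% of the cluster's bins but 39.5% of all bins were in A. A rate for A chromatin alone was not counted. In control the loops had a median length of 370 kb, in Brg1KD of 230 kb and in Ino80KD of 370 kb, while the median of all loops was 250 kb in each list.

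Of the 57 members 18 had their start under an anchor in at least 1 list, 5 Pcdha, 3 Pcdhb and 10 Pcdhg genes, with 8 in control, 11 in Brg1KD and 9 in Ino80KD. In every list 2 loops had an anchor in the interval between the Pcdha and Pcdhb genes, at 37210001 to 37250000. Downstream of the Pcdhg genes, within the gene Diaph1 (a formin that builds actin filaments), anchors at 37860001 to 37880000 served 2 loops in each list.

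Within the Pcdha stretch, the start of Pcdha12 (37020001 to 37030000) was joined with 37210001 to 37220000 in control and, at identical positions, in Brg1KD. In Ino80KD the loop ran from the neighbouring anchor at the start of Pcdha11 (37010001 to 37020000) to 37220001 to 37230000, within 10 kb at both ends. The starts of Pcdha1 and Pcdha2 (36930001 to 36940000) were joined with 37220001 to 37230000 in the Brg1KD list alone. Upstream, an anchor at 36850001 to 36860000, over no protein-coding gene, was joined with 37240001 to 37250000 in control and Ino80KD, and not in Brg1KD within 50 kb.

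The longest loop joined the Pcdha and Pcdhg genes. In control it ran over 790 kb from the start of Pcdha3 (36940001 to 36950000) to the starts of Pcdhgb5 and Pcdhga9 (37730001 to 37740000). In Ino80KD it ran over 780 kb from the same anchor to the starts of Pcdhgb4 and Pcdhga8 (37720001 to 37730000). The Brg1KD list held no loop within 50 kb of it at both ends, and its longest loop of the cluster was 390 kb. Over the whole lists, 8.54% of loops were of 780 kb or more in control, 7.87% in Brg1KD and 8.26% in Ino80KD. Its ends lay in different classes, A.2.2 at Pcdha3 in both controls and A.1.1 at Pcdhgb5.

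The Pcdhb genes entered loops mainly through the start of Pcdhb20 (37500001 to 37510000), which carried 2 loops in each list. From there 1 loop ran to Diaph1 (37870001 to 37880000) at identical positions in all 3 lists. The other ran to the starts of Pcdhgb5 and Pcdhga9 in control and Brg1KD, and in Ino80KD to the start of Pcdhga6 (37700001 to 37710000), nearer by 3 anchor widths. The Brg1KD list alone had anchors further upstream in Pcdhb. It joined Pcdhb5 (37320001 to 37330000) with Pcdhb11 (37420001 to 37430000), and an anchor over the end of Pcdhb4 (37310001 to 37320000) with the start of Pcdhga6. These anchors lie in the Pcdhb3 to Pcdhb22 segment, which was in A.1.1 in Brg1KD replicate 2 and in A.1.2 in Brg1KD replicate 1, as in control replicate 1.

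From the Pcdhg genes, the starts of Pcdhgb6 and Pcdhga10 (37740001 to 37750000) were joined with Pcdh1 (38190001 to 38200000), a protocadherin outside the cluster, in control and Ino80KD at identical positions. The Brg1KD list had no such loop within 50 kb. Pcdhga12 (37760001 to 37770000) was joined with Diaph1 at 37860001 to 37870000 in control and Ino80KD. In Brg1KD the loop was 10 kb off at both ends, from the starts of Pcdhgb7 and Pcdhga11 (37750001 to 37760000) to 37870001 to 37880000.

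**Figure D4:**
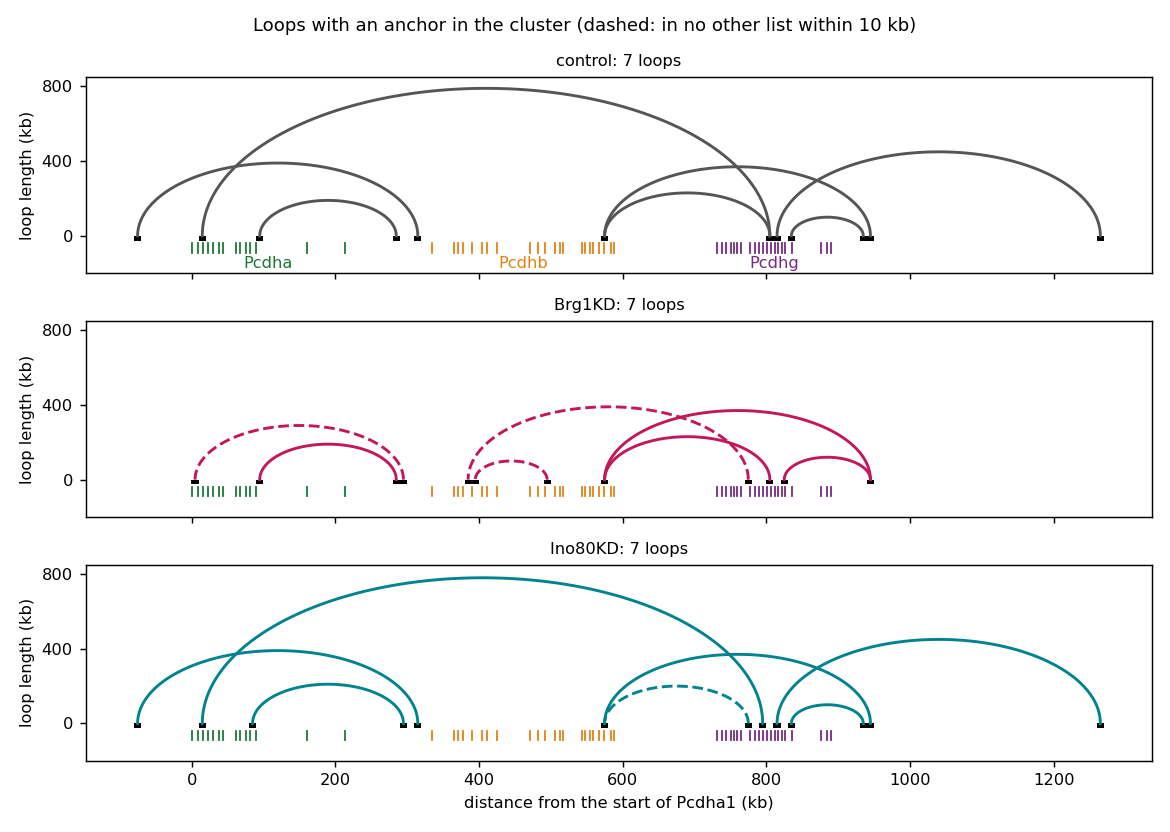
Loops with an anchor in the cluster in the list of each group, drawn as arcs whose height is the loop length in kb, against distance from the start of Pcdha1 in kb. Black bars are anchors and coloured ticks gene starts. Control and Ino80KD have an arc of 790 and 780 kb from Pcdha to Pcdhg that the Brg1KD list lacks, and dashed arcs are in no other list within 10 kb.

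Of the 7 control loops, 3 were in the Brg1KD list at identical positions (42.9%, against 45.7% of all control loops) and 4 in the Ino80KD list (57.1%, against 46.4%). With anchors allowed to differ by 10 kb, 4 were in Brg1KD (57.1% against 77%) and 6 in Ino80KD (85.7% against 75.1%). At 50 kb, 4 were in Brg1KD and all 7 in Ino80KD (81.7% and 79.3% of all control loops). Read from the knockdown lists, 4 of the 7 Brg1KD loops (57.1%, against 75.6% of all) and 6 of the 7 Ino80KD loops (85.7% against 81%) had a control loop within 10 kb. Between the knockdowns 3 of 7 matched within 10 kb (42.9%, against 70.9% of all Brg1KD and 77.8% of all Ino80KD loops). With 7 loops a list and no replicates, these shares were not tested.

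Other cadherin genes and known regulators of the cluster were placed by their midpoints. By limma 0 of these 48 genes passed in each comparison, where 4.83% of all bins passed in Brg1KD, 3.22% in Ino80KD and 3.96% between the knockdowns. At an unadjusted p under 0.05 by limma was 1 gene in each (Cdh9 in Brg1KD, Pcdh18 in Ino80KD and again between the knockdowns). Of all 47717 bins 2903, 1797 and 2386 were, in the same order. The 9 desmosomal cadherin genes Dsc1 to Dsg4, adhesion proteins of epithelia in a cluster of their own on chromosome 18, were all in B.1.2 in 5 libraries and in B.2.1 in Brg1KD replicate 2, the library with the highest mean rank over the protocadherin cluster. Of 10 protocadherin genes outside the cluster, Pcdh1 and Pcdh12, its neighbours, were in A.1.1 in all 6 libraries, while 5 (Pcdh7, Pcdh9, Pcdh15, Pcdh17 and Pcdh20) were in B.2.2 in all 6. Pcdh18 on chromosome 3 was in B.1.2 in both Ino80KD libraries and in B.2.2 and B.2.1 in control, a difference of 1.5 classes, and it was in B.2.2 in both Brg1KD libraries, -2 classes from Ino80KD. Pcdh10, also on chromosome 3, was in B.2.2 in both Brg1KD libraries and in B.2.1 in both Ino80KD libraries, with control in B.2.1 and B.2.2. Of 13 classical cadherins, which join cells by binding across the gap between them, 2 differed from control by 1 class or more, both towards B in Brg1KD. Among all bins 10.03% differed by as much towards B in Brg1KD and 4.91% towards A. The 2 genes were Cdh9 (-1.5 classes) and Cdh6 (-1 class), both on chromosome 15, and the groups overlapped for Cdh6. Against Ino80KD they differed by -1 and -1.5 classes. All 16 regulators, among them Ctcf, the cohesin genes Rad21 and Smc3 and the silencing factors Smchd1 and Setdb1, were in A in all 6 libraries, and none differed by 1 class in any comparison. Among all bins 2.98% differed by 1 class or more towards A in Ino80KD and 6.75% towards B. Between the knockdowns 6.34% did so with Brg1KD higher and 6.77% with Ino80KD higher.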

How the data were processed

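The authors deposited, per library, mm10 segments carrying a subcompartment name and a score in 8 equal steps that ranks it within the library, and per group a list of loop anchors. Per the submitters' processing notes, BWA, SAMtools, Juicer 2.0, HOMER and bedtools were used, named without roles. For the calling of subcompartments and loops, tool and threshold are not given in the sources used here. Depth is unknown because the files hold no read numbers.

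Scores were turned into ranks of 1 to 8 in 50 kb bins. Bins ranked in every library (47717) were fitted with limma 3.58.1 in R 4.3.3 on the groups, with Benjamini-Hochberg adjustment and a threshold of 0.05. The fit was tested on simulated ranks with the same spread in every bin, unlike the data, and with shifts only in bins of middle rank. Sizes of shifts were recovered there but many unshifted bins were called too. Counts of bins whose groups do not overlap therefore stand beside the fit. Gene positions came from a RefSeq table (GRCm38.p6, the same assembly as mm10) that gives no strand. Members were placed by their start and other genes by their midpoint. An anchor belonged to the cluster if it overlapped its span. The labels name the replicate number as batch, so libraries of a batch were paired in the differences within batches and in fits with a block. The main fit and the group means did not pair them. Over bins, deviations of libraries of a batch from their group means correlated between control and Brg1KD with r = 0.0984. Between control and Ino80KD r was 0.102 and between the knockdowns 0.0885.

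Named were the ends and C types of each family, members in shifted bins or with a start or body under an anchor, neighbours within 500 kb, and members of 4 lists with a difference of 1 class or more. Members, lists and rules were chosen with earlier results of these data known. Alternatives were bin size, extent of the cluster, batch, variance, left-out libraries and the tolerance in matching loops.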

Additional observations from a re-analysis of the deposited data

Results flagged for a closer look

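The Ino80KD difference from control went opposite ways in the 2 batches. Over the whole cluster it was -0.368 classes in batch 1 and 0.211 in batch 2. Over the Pcdhb bins it was -0.833 in batch 1 and 0.167 in batch 2. With 1 library of each group per batch, the difference between batches was not tested.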

How the results depend on the processing

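Over all alternatives of the main results, 78 values stayed close to the reported ones and 27 did not. These counts include values that are no separate check, those in bins of 25 kb, the means with a replicate block and the means without 1 library. A mean rank difference counted as close if it moved by no more than the pooled SD of the groups. With 2 libraries a group, leaving out 1 cannot move it further than that. The cluster's mean difference from control in Brg1KD was 0.211 and 1 in batches 1 and 2, and that of Ino80KD -0.368 and 0.211. Counted as a share of bins in A, Ino80KD was 15.8 percentage points above control, against a negative mean rank difference. Leaving out a library gave 0.342 to 0.868 (Brg1KD), -0.237 to 0.0789 (Ino80KD) and 0.421 to 0.947 (between knockdowns). With the batch as a replicate block the mean differences were unchanged by construction, and limma with this block called the same numbers of bins (1, 0 and 1). Limma called 2 bins of 25 kb in Brg1KD and 2 between the knockdowns, and 0 bins of 100 kb in both. All borders in the cluster lie on multiples of 50 kb, so a bin of 25 kb only repeats the label of its 50 kb bin. Counts in bins of 25 kb are thus higher by construction. Between the knockdowns limma called 0 with a common variance and 7 with that and the block, an alternative chosen after seeing the data, which called 1 in Ino80KD. Without single libraries limma called 1 to 2 bins in Brg1KD and 1 to 2 between the knockdowns, the 2 in each case without Brg1KD replicate 2. At least 2 classes apart were 0 bins in each comparison. Non-overlapping bins of 25 kb numbered 2 in Ino80KD and 15 between the knockdowns, and 5 of 100 kb between the knockdowns. Without single libraries, chosen after seeing the data, 2 to 13 bins did not overlap in Brg1KD (8 without control replicate 1, 13 without Brg1KD replicate 1) and 1 to 7 in Ino80KD (7 without control replicate 2 or Ino80KD replicate 1), since fewer libraries overlap less. Both anchors lay inside the cluster in 3 loops of control, 5 of Brg1KD and 3 of Ino80KD. Within 50 kb, 7 control loops were matched in Ino80KD. Depth is unknown, and ranks of 8 steps and 2 libraries a group limit the precision.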

Other observations

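From Pcdhac1 to Pcdhb2, 5 adjoining bins had a pattern that was picked after its values were seen. Both batch 2 knockdown libraries were in A and the other 4 libraries in B. Over the genome 35 of 47717 bins (0.0733%) had this pattern, these 5 included. Of 2614 bins in B.1.1 in both controls 25 had it (0.956%). Control replicate 2, from the same batch, was in B there by the terms of the pattern, and a cause was not tested. In each library the 5 bins share a segment, so they are not independent observations.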
